A study of Homo sapiens with 16 samples.

Results

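The members are the exon-level probe sets of 37 genes in 2 stretches of the long arm of chromosome 18, 19 genes from CABLES1 to GALNT1 (18q11-12) and 18 genes from NEDD4L to CBLN2 (18q21-22). A probe set is a small group of array probes that reports, as a rule, on a single exon or part of one. A probe set was taken when its only gene symbol was one of the 37, which gave 603 of the 257430 exon-level probe sets, 295 in the first stretch and 308 in the second. The genes had been picked because of their difference between the induction labels, so that difference is given below as a description, without a test. The genes of a stretch are not a full set of neighbours: 29 other measured genes lie among the 19 and 20 among the 18.

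The RNA came from L1236, an established line of Hodgkin lymphoma cells, carrying a retrovirus that encodes a doxycycline-switched short hairpin RNA against RELB, an NF-kB subunit. Every group carries the virus: the infected cells were divided, and 4 arrays are labelled uninduced and 4 induced (with doxycycline). Each label has an array for every combination of a B code (B_1, B_4) and a last number (1, 4); what these stand for is not stated, and arrays alike in both are set side by side below as pairs 1 and 2 (B_1) and 3 and 4 (B_4), a matching by code only. No label says whether the arrays are separate cultures, so a p-value reflects only the spread from array to array, possibly technical, and 8 arrays limit the precision. Among the uninduced arrays, the correlation within a B code was 0.9592 or more and that between codes 0.9560 or less; among the induced arrays the codes did not separate in this way (lowest within a code 0.9521, highest between codes 0.9581).

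The targeted gene did not bear out the labels. RELB had a gene-level log2 signal of 7.40 ± 0.13 in the arrays labelled uninduced and 7.25 ± 0.11 in those labelled induced (SD, n = 4 each; exact permutation test, two-sided, p = 0.171, where 0.0286 is the smallest p possible). Every direction below therefore rests on the labels alone. Of the lists of cell type markers, the T-cell and myeloid lists held no gene at least 2-fold apart between the labels, and 7 of 7 and 5 of 6 of their genes lay below the median of all gene-level probe sets. Single markers differed widely: TNFRSF8 (CD30) ran from 6.65 to 7.09 in the uninduced and from 11.5 to 11.7 in the induced arrays, GATA3 from 9.57 to 10.4 and from 4.65 to 5.05. Of 8 Hodgkin cell markers 3 were at least 2-fold lower and 2 higher in the arrays labelled induced; the mean of the list ran from 8.14 to 8.20 in the uninduced and from 7.47 to 7.72 in the induced arrays. Of 6 measured B-cell markers (of 8 listed) 3 were at least 2-fold higher (CD79A, CD22 and PAX5), with list means of 6.48 to 6.65 and 8.51 to 8.89, and the defining marker MS4A1 lay below that median. Of 7 fibroblast markers only FAP was 2-fold apart (lower), with list means of 5.37 to 5.51 and 4.72 to 4.83. The part of these shifts in the results below was not tested.

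Genes that lie side by side on a chromosome are transcribed from their own promoters and mostly have unrelated tasks. They share, however, the number of copies of the segment and, in part, its chromatin. An exon-level array reads each gene many times over, because most of its exons have a probe set of their own. It can thus show whether a difference covers a whole transcript or a part of it.

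Promoter sequences are shown for 4 of the genes with the lowest differences, because they differ in their content of CpG, the dinucleotide at which human DNA is methylated. The RefSeq table (GRCh38.p14) held 52 promoters of 34 of the 37 genes; B4GALT6, TRAPPC8 and KLHL14 had no entry. The 250 bases before the annotated start are given 5′ to 3′ on the strand of the gene, with each CG in capitals. The windows lie at chr18:24426420-24426669, plus strand, for IMPACT; chr18:62325060-62325309, plus strand, for TNFRSF11A; chr18:58629092-58629341, minus strand, for ALPK2; and chr18:63969831-63970080, plus strand, for SERPINB8.
IMPACT: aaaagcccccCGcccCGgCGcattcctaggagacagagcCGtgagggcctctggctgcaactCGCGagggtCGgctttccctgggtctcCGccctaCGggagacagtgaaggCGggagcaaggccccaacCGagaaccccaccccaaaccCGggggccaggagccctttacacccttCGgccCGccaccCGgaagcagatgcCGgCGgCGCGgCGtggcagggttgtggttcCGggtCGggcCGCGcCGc
TNFRSF11A: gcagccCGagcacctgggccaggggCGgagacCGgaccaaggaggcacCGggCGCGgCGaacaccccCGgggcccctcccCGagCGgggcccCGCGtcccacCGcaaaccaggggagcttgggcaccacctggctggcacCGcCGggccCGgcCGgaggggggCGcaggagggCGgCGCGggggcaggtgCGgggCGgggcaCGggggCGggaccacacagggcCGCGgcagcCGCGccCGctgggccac
ALPK2: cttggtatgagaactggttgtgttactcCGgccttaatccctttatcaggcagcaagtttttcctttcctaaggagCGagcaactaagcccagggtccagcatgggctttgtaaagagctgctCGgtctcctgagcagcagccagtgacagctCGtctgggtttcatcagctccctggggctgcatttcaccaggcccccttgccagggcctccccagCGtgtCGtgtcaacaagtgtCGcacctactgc
SERPINB8: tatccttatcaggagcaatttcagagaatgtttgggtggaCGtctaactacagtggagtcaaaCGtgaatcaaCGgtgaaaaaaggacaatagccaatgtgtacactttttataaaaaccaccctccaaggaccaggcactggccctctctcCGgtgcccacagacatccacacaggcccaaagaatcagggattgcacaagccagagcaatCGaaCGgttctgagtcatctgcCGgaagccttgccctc
These windows hold 25 CpG in IMPACT and 30 in TNFRSF11A, but 7 each in ALPK2 and SERPINB8.

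The signal of most members was lower in the arrays labelled induced. Of the 603 probe sets 560 passed the filter on low signal (a mean over all 8 arrays at or above the 25th percentile of all probe sets, 4.68). Of those, 456 were lower, where 47.4% of all tested probe sets were. At least 2-fold lower were 188, against a background of 11.3% of all tested probe sets, and at least 2-fold higher were 15, against 10.6%. The 4 induced values lay entirely below the 4 uninduced values for 265 members (background 17.8%) and entirely above them for 27 (background 18.6%). The genes were chosen on this contrast, so nothing is read from these counts. Of the 560, 55 passed although 1 of the groups had a mean under the threshold, the induced group in 50 of them. The members nearest to the threshold were ZNF397 (mean 4.69, log2 difference -0.98) just inside and IMPACT (mean 4.66, difference -2.87) just outside.

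**Figure D1:**
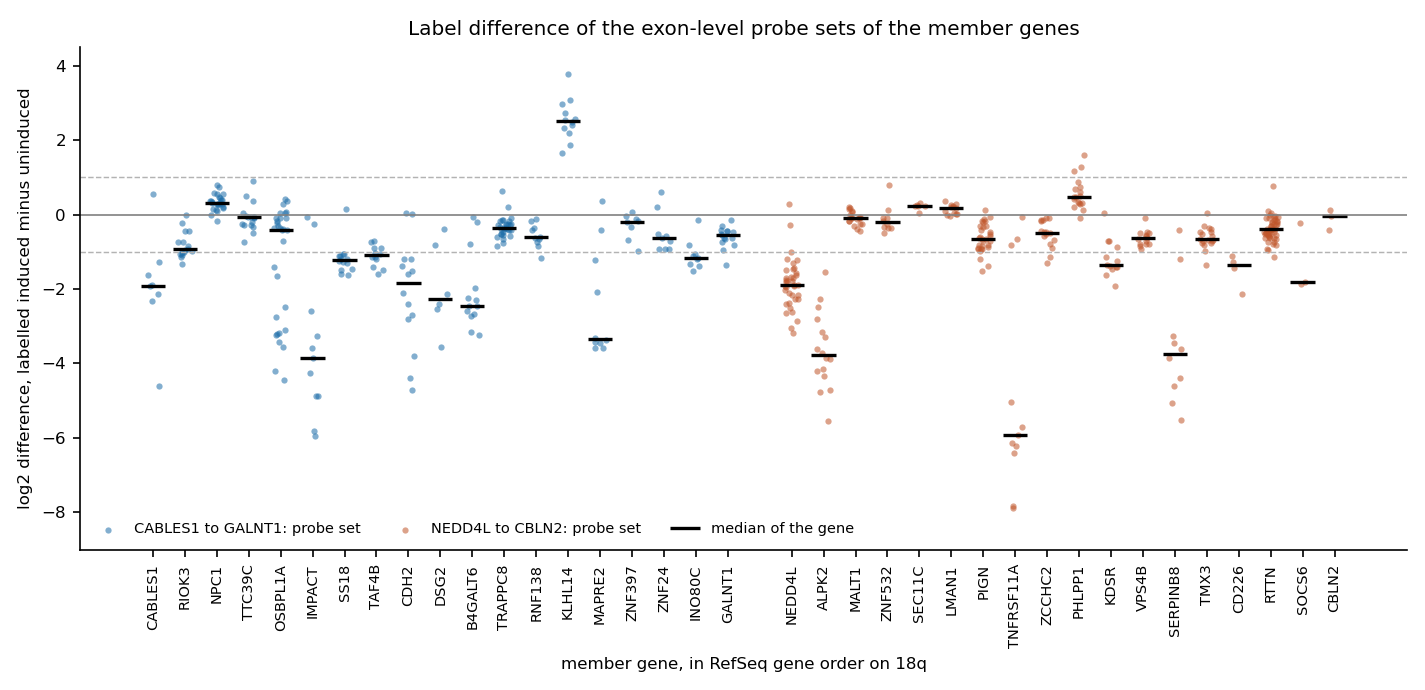
Log2 difference (induced minus uninduced arrays) of each of the 560 probe sets past the filter, by gene in RefSeq order; black bars are gene medians and dashed lines mark 2-fold. Most points lie below 0, KLHL14 is wholly above 2-fold higher, and TNFRSF11A reaches -7.90.

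In the first stretch, CABLES1 to GALNT1, 17 of 19 gene medians were below 0 (background 46.1% of 17645 genes). At least 2-fold lower were 9 (background 8.69%) and 1 was 2-fold higher (background 6.53%). A gene's value here is the median of its probe sets' log2 differences, induced minus uninduced. In order along the chromosome they were -1.92 for CABLES1, a linker of cyclin-dependent kinases, -0.93 for RIOK3, an atypical kinase, 0.32 for NPC1, the lysosomal cholesterol exporter, and -0.08 for TTC39C. Next came OSBPL1A, an oxysterol-binding protein of late endosomes, at -0.41 and IMPACT, an inhibitor of the amino acid sensor GCN2, at -3.86.

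The middle of this stretch held chromatin and adhesion genes. SS18, a subunit of the BAF chromatin remodeller, stood at -1.22 and TAF4B, a subunit of the general factor TFIID, at -1.10. The cadherins followed, with CDH2 (N-cadherin) at -1.85 and DSG2, a desmosomal cadherin, at -2.27. B4GALT6, which makes lactosylceramide, had -2.45, the trafficking subunit TRAPPC8 -0.37 and the ubiquitin ligase RNF138 -0.61. KLHL14, a Kelch-like protein, stood apart from its neighbours at 2.51. The end of the stretch comprised MAPRE2, a microtubule end-binding protein, at -3.35, the zinc finger genes ZNF397 at -0.19 and ZNF24 at -0.64, the chromatin remodeller subunit INO80C at -1.17 and GALNT1, which starts mucin-type O-glycosylation, at -0.55.

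IMPACT had the lowest median of this stretch. The probe set at its median read 8.37, 7.78, 7.61 and 7.04 in the uninduced arrays of pairs 1 to 4, and 4.19, 3.46, 4.24 and 3.45 in the induced ones. The groups did not overlap, with a difference of -3.86 ± 0.20 (SE of the limma fit). The 4 induced values lay below the filter's threshold of 4.68, so this probe set passed only through the uninduced group and its fold is not given. Its brightest probe set, by contrast, read 9.995, 10.32, 10.33 and 10.95 against 9.38, 10.68, 10.48 and 10.08, and the groups overlapped (-0.25 ± 0.27). Of its 11 probe sets, 9 were between -5.95 and -2.59 and 2 between -0.25 and -0.07. In 7 of the 11 the mean of 1 group lay under the threshold.

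MAPRE2 gave nearly the same difference in most of its probe sets. The brightest read 12.62, 12.62, 12.56 and 12.56 in the uninduced arrays and 9.17, 9.08, 9.47 and 9.30 in the induced arrays (-3.33 ± 0.14, 10.05-fold lower). The uninduced arrays agreed within 0.04 (SD) there, and the induced ones were all lower. Of 10 probe sets 6 lay between -3.58 and -3.33, and the other 4 ran from -2.09 to 0.36. The first 2 in the order of the deposited identifiers were the ones that were not 2-fold lower; the files used here do not say whether that order follows the gene.

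KLHL14 was the one member gene with a 2-fold higher median. Its brightest probe set read 7.40, 7.46, 9.22 and 9.13 in the uninduced arrays and 11.01, 10.95, 11.06 and 11.11 in the induced arrays (2.73 ± 0.34). The induced values were nearly equal, while the uninduced values of B_1 were lower than those of B_4. All 12 probe sets past the filter were higher, by 1.65 to 3.78. In 2 of them the mean of 1 group lay under the filter's threshold.

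B4GALT6 read 11.07, 10.85, 10.72 and 10.60 in the uninduced arrays at its brightest probe set, and 8.69, 8.33, 8.68 and 8.39 in the induced arrays (-2.29 ± 0.14). The groups did not overlap, and all 13 probe sets were lower, by -3.23 to -0.07. The probe set of DSG2 nearest the gene's median read 7.17, 7.001, 7.12 and 6.76 against 4.37, 4.604, 4.52 and 4.90 (-2.42 ± 0.18). The induced mean of that probe set was below the filter's threshold too. Only 6 of the 15 probe sets of DSG2 passed the filter, and in 4 of those 6 the mean of 1 group lay under the threshold. The brightest probe set of DSG2 had a smaller difference (-0.40 ± 0.16).

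OSBPL1A was split within the gene. In identifier order, the first 15 of its 30 probe sets lay between -0.72 and 0.42. The next 8 were at least 2-fold lower, from -4.45 to -1.64, and after 1 at -0.30 came 4 more from -3.55 to -1.42. The last 2 were at -0.37 and -0.22. Its median of -0.41 therefore stands for neither class of probe sets, and the gene-level table gave -1.87. RefSeq lists 3 promoters for OSBPL1A; the files used here place no probe set on a transcript.

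The 2 genes of this stretch with the smallest medians were TTC39C and ZNF397. TTC39C read 11.24, 11.16, 11.17 and 11.15 in the uninduced arrays at its brightest probe set and 10.97, 10.85, 11.04 and 10.79 in the induced ones (-0.27 ± 0.13). The groups did not overlap there, although they were close. Its 17 probe sets ran from -0.74 to 0.90. ZNF397 read 8.89, 8.88, 8.46 and 8.26 against 8.06, 7.83, 7.94 and 7.88 (-0.70 ± 0.16) at its brightest probe set, larger than its median.

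The other genes of this stretch with 2-fold lower medians were CABLES1, SS18, TAF4B, CDH2 and INO80C. The probe set of CABLES1 nearest its median read 8.47, 8.80, 8.32 and 8.06 in the uninduced and 5.95, 6.54, 6.06 and 7.37 in the induced arrays, where the last was the highest and still below every uninduced value. Of its 8 probe sets 7 were 2-fold lower, and 1 was higher without overlap (0.55). In 3 of the 8 the mean of 1 group lay under the filter's threshold. The probe set of SS18 nearest its median read 11.12, 11.21, 10.99 and 10.92 against 9.87, 9.76, 9.93 and 9.91. Of its 14 probe sets 13 were 2-fold lower, the 14th being at 0.13. CDH2 read 7.26, 7.26, 6.81 and 6.68 against 5.21, 5.67, 5.76 and 4.99 at the nearest probe set, and 12 of 14 were 2-fold lower, down to -4.70. In 6 of those 14 the mean of 1 group lay under the filter's threshold. TAF4B had 8 of 12 and INO80C 7 of 9 probe sets 2-fold lower, and all of both were below 0.

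Smaller differences also ran through most probe sets of a gene. All 16 of RIOK3, 10 of RNF138 and 15 of GALNT1 were below 0, without overlap of the groups in 11, 5 and 12. TRAPPC8 was lower in 28 of 30 probe sets, none of them 2-fold, and 7 had groups that did not overlap. Over all tested probe sets 47.4% were lower and 17.8% lower without overlap, and the 7 of 30 in TRAPPC8 is near that last share. NPC1 was higher in 23 of 25, with a range of -0.19 to 0.78, but the groups were apart in only 1.

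**Figure D2:**
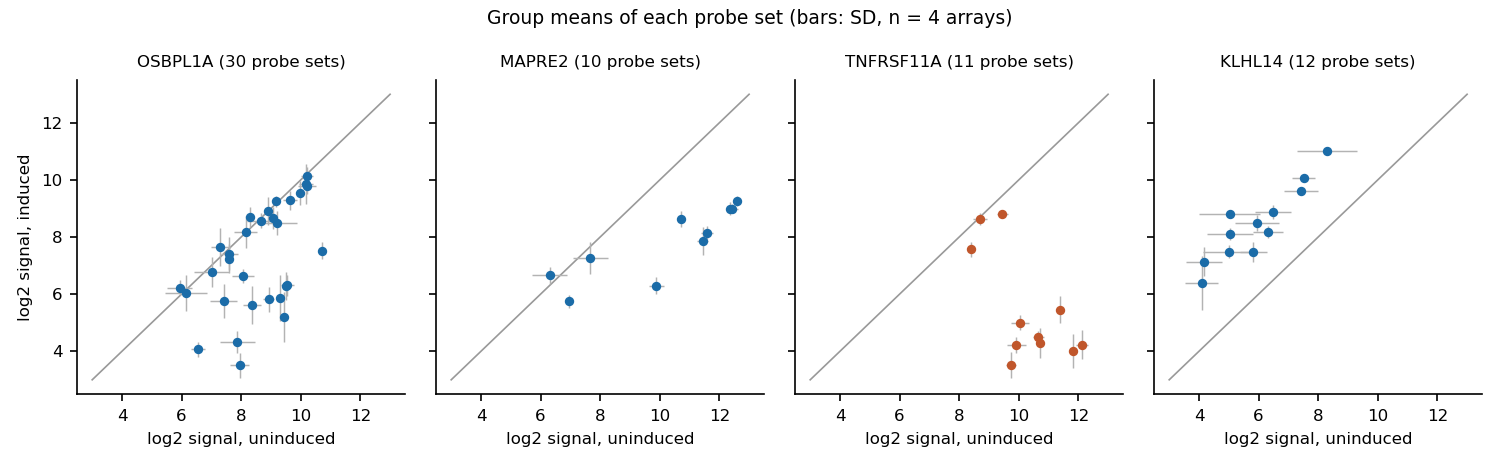
Mean log2 signal of each probe set in the uninduced arrays (horizontal) and the induced arrays (vertical), bars showing the SD over 4 arrays, for OSBPL1A, MAPRE2, TNFRSF11A and KLHL14; the grey line marks equal signal. OSBPL1A has one class of probe sets on the line and another below it, and all 12 of KLHL14 lie above it.

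In the second stretch, NEDD4L to CBLN2, 15 of 18 gene medians were below 0, 7 were at least 2-fold lower and 0 were 2-fold higher, beside the same backgrounds. NEDD4L, a ubiquitin ligase of ion channels, stood at -1.88 and ALPK2, an alpha-kinase, at -3.79. The 4 genes after them were close to 0: MALT1, the paracaspase that carries antigen receptor signals to NF-kB, at -0.10, ZNF532 at -0.21, the signal peptidase subunit SEC11C at 0.23 and LMAN1, a cargo receptor between endoplasmic reticulum and Golgi, at 0.18. PIGN, an enzyme of GPI anchor synthesis, had -0.66.

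TNFRSF11A, which encodes RANK, a receptor upstream of NF-kB, stood at -5.92, the lowest of all 37 genes. ZCCHC2 followed at -0.48 and PHLPP1, a phosphatase that acts on AKT, at 0.47, the highest of this stretch. KDSR, an enzyme of ceramide synthesis, had -1.37, the ESCRT ATPase VPS4B -0.64 and the protease inhibitor SERPINB8 -3.74. Toward the end lay TMX3, a thioredoxin-related protein, at -0.67, the lymphocyte receptor CD226 at -1.36 (4 of its 8 probe sets past the filter), the centriole protein RTTN at -0.39 over 49 probe sets, SOCS6, of the family of cytokine signalling suppressors, at -1.83 and CBLN2, a synapse organiser, at -0.03.

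At the median probe set of TNFRSF11A the uninduced arrays read 11.48, 11.49, 11.29 and 11.24 and the induced arrays 5.77, 5.94, 4.97 and 5.14. The difference was -5.92 ± 0.17, or 60.5-fold, and no values overlapped. The gene had 8 probe sets between -7.90 and -5.03 and 3 between -0.81 and -0.06, with none between. In 6 of these 11 the mean of 1 group lay under the filter's threshold. At its brightest probe set by the mean of all arrays the signal was 9.46, 9.67, 9.42 and 9.25 against 8.65, 8.88, 8.71 and 8.94 (-0.66 ± 0.15). In identifier order the small differences belonged to the first 2 probe sets and the fifth.

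ALPK2 was lower in all of its 16 probe sets, by -5.54 to -1.53, each with groups that did not overlap. Its brightest read 11.35, 10.86, 10.59 and 10.48 in the uninduced arrays and 8.19, 7.83, 7.74 and 8.33 in the induced arrays (-2.80 ± 0.23). SERPINB8 read 10.53, 10.55, 10.18 and 10.17 against 6.12, 5.38, 5.95 and 5.54 at its brightest (-4.61 ± 0.19, 24.4-fold lower). Of its 10 probe sets 9 were at least 2-fold lower, and the first in identifier order was at -0.43.

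NEDD4L was lower over nearly its whole set. The brightest of its probe sets read 10.67, 10.59, 10.79 and 10.55 against 9.07, 9.12, 8.94 and 9.16 (-1.58 ± 0.14). Of 37 probe sets 35 were at least 2-fold lower, between -3.17 and -1.01. In 9 of the 37 the mean of 1 group lay under the filter's threshold. SOCS6 had only 3 probe sets past the filter: the middle one read 8.81, 8.76, 8.98 and 8.74 against 7.05, 7.02, 6.80 and 7.11 (-1.83 ± 0.15), while the brightest was at -0.22 ± 0.20 with overlapping groups.

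KDSR and CD226 complete the 2-fold lower genes of the second stretch. The KDSR probe set nearest the median read 9.88, 9.36, 9.77 and 9.85 against 8.44, 8.40, 8.18 and 8.36, a clear gap, and 9 of 13 probe sets were 2-fold lower, from -1.91 upward to 0.03. The 4 probe sets of CD226 were all 2-fold lower without overlap, from -2.14 to -1.11; the one nearest the median read 5.999, 4.88, 5.11 and 5.94 against 4.38, 3.96, 3.94 and 3.89, so its induced values lay below the filter's threshold of 4.68.

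Among the rest, VPS4B was lower in all 14 probe sets (10 without overlap), PIGN in 30 of 31 (11), TMX3 in 17 of 18 (8) and RTTN in 46 of 49 (15). Over all tested probe sets 17.8% were lower without overlap and 18.6% higher without overlap. ZCCHC2 was lower in all 16 at exon level (4 without overlap), with a median of -0.48. The gene-level table held 2 entries for ZCCHC2, and only the one with the higher mean was read, at -0.09. PHLPP1 was higher in 17 of 18 probe sets, 10 without overlap, and SEC11C in 6 of 6, 2 without overlap. For LMAN1, at -0.04 to 0.36, no probe set had groups apart, and for ZNF532 1 did, at 0.79.

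MALT1 and CBLN2 had the smallest medians of the second stretch. MALT1 read 10.61, 10.60, 10.94 and 10.85 against 10.66, 11.37, 10.66 and 10.70 at its brightest probe set (0.10 ± 0.21), and its 19 probe sets ran from -0.44 to 0.20. CBLN2 read 7.64, 7.999, 8.31 and 8.03 against 7.81, 8.27, 8.29 and 8.10 (0.12 ± 0.18). The groups overlapped in both.

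Set side by side, the first stretch had a median over its genes of -0.93 and the second of -0.65, a difference of -0.28. In pairs 1 to 4 the first stretch stood at -0.92, -0.92, -0.81 and -0.57 and the second at -0.45, -0.83, -0.57 and -0.47. The first was thus lower in every pair, by -0.48, -0.09, -0.24 and -0.10, a mean of -0.23 ± 0.18 (SD of the pairs). The gene medians spread far more widely than that, with a middle 50% from -1.88 to -0.39 in the first stretch and from -1.71 to -0.12 in the second. With probe sets under the median signal left out the difference between the stretches was -0.018, and in the gene-level table -0.52. By probe sets the stretches were close, with medians of -0.59 over 269 and -0.57 over 291. At least 2-fold lower were 36.4% and 30.9%, and at least 2-fold higher 4.46% and 1.03%; 12 of the 15 probe sets that were 2-fold higher belonged to KLHL14 and the other 3 to PHLPP1.

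The spread within genes was wide in both. In 8 of 19 genes of the first stretch and 4 of 18 of the second, the lowest and highest probe sets were at least 2 log2 units apart. The gene-level table, a second summary of the same arrays, had the same sign as the median of the probe sets in 36 of 37 genes (CBLN2 was 0.02) and lay within 0.5 of it in 34. OSBPL1A was the farthest, by 1.46.

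Most genes had the same direction in each pair. The genes were chosen on this contrast over these same arrays, so agreement between the pairs is a description and no further support. The matching count over all genes is not given here. Of 37, 27 were lower in 4 of 4 pairs and 3 higher in 4 of 4 (KLHL14, SEC11C and PHLPP1). The 7 with mixed signs were NPC1, TTC39C, ZNF397, MALT1, ZNF532, LMAN1 and CBLN2, all within 0.32 of 0. TNFRSF11A varied least among the 16 genes at least 2-fold lower, from -5.94 to -5.71 over the pairs. CABLES1 was at -2.78 and -2.25 in the B_1 pairs and -1.58 and -1.24 in the B_4 pairs, ALPK2 at -4.24 and -3.86 against -3.45 and -2.72, and KLHL14 at 3.02 and 2.85 against 1.90 and 1.91. Within B_1 the stretch medians were -1.02 and -0.59, and within B_4 -0.80 and -0.61.

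**Figure D3:**
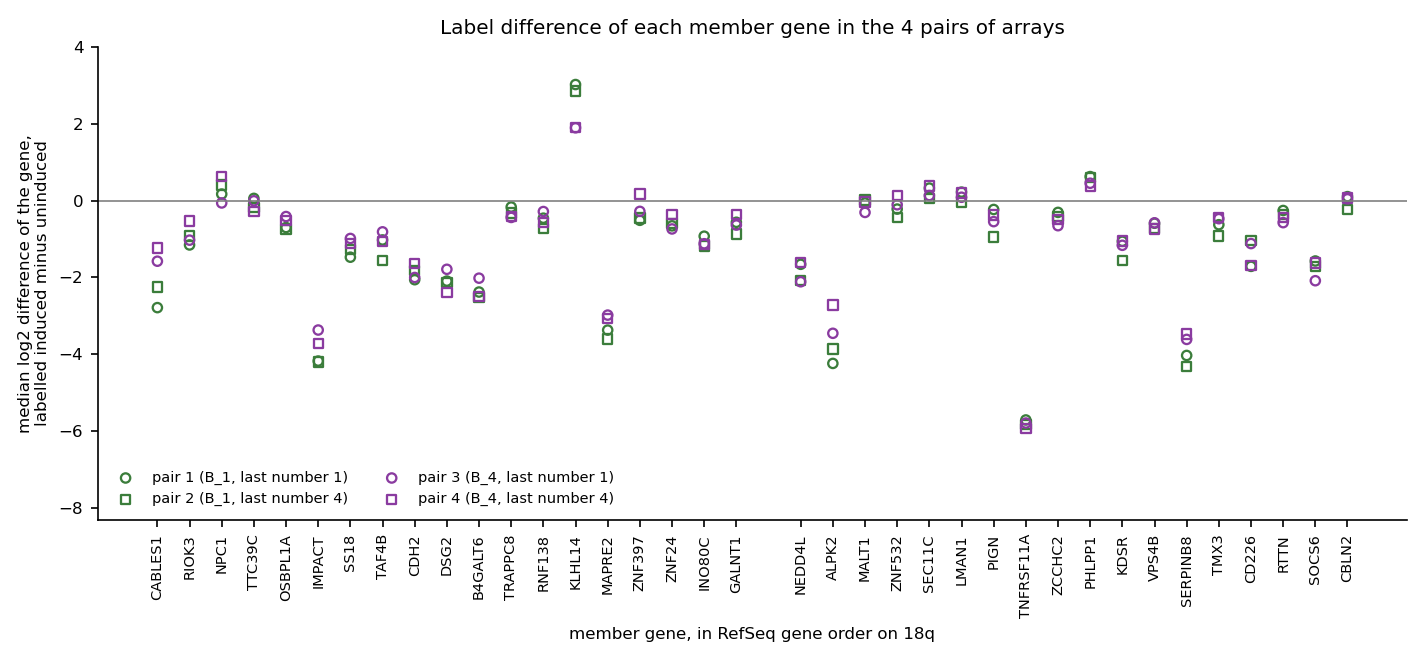
Median log2 difference of each member gene in the 4 pairs of arrays; colour gives the B code and shape the last number. The pairs lie close together for TNFRSF11A (-5.94 to -5.71), and CABLES1, ALPK2 and KLHL14 have larger differences in the B_1 pairs.

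The contrasts that played no part in the choice of genes were fitted as tests, and no member passed. Between B codes limma called 0 of 560 member probe sets at an adjusted p under 0.05 (lowest 0.670) and 0% of all tested; at an unadjusted p under 0.05 there were 36, or 6.43%, against 7.26% of all probe sets. Between last numbers it called 0, with 26 unadjusted (4.64% against 5.57%). For the interaction of the label with the B code it called 0, with 44 unadjusted (7.86% against 7.47%), and for that with the last number 0, with 26 unadjusted (4.64% against 4%). The shares among members were thus near those over the whole table. In a check of the fits with planted changes, neither interaction test called a change of any size tried, so its count of 0 says nothing about the members. The B code and last number tests each called 0 of 50 planted changes of 1 log2 unit. Of the planted changes of 2 units they called 44% and 46%. Their counts of 0 therefore say nothing about differences of 2-fold or less. A p that misses the threshold does not show that the pairs were alike.

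Among the B code differences the lowest p-values belonged to PIGN (-1.15 ± 0.19, B_4 minus B_1), ALPK2 (-0.79 ± 0.17) and RTTN (-1.44 ± 0.32), each with a limma adjusted p of 0.670. That PIGN probe set read 6.15 and 6.56 in the uninduced and 6.69 and 6.46 in the induced arrays of B_1, and 5.28, 5.68, 4.98 and 5.31 in those of B_4. The B_4 values were the lower ones under both labels. For the last number they were TMX3 (-1.004 ± 0.16), TAF4B (-1.12 ± 0.27) and PHLPP1 (0.59 ± 0.15), all with an adjusted p of 0.867 by limma.

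For the interaction with the B code the lowest p-values came from ALPK2 and KLHL14. A probe set of ALPK2 read 9.74, 9.83, 8.96 and 8.49 in the uninduced arrays and 3.78, 2.92, 5.46 and 5.85 in the induced arrays, so that its label difference was 3.37 ± 0.48 smaller in size in B_4; the B_1 induced values lay below the filter's threshold of 4.68. KLHL14 had 2 such probe sets (-1.65 ± 0.26 and -1.55 ± 0.29), with a limma adjusted p of 0.645 for all 3. For the last number they were ALPK2 (1.85 ± 0.39), KLHL14 (-1.73 ± 0.37) and RTTN (1.47 ± 0.33), with an adjusted p of 0.99996 by limma.

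The other genes of the stretches stood closer to 0 than the members, which had been picked for their difference. Of the 29 other measured genes from CABLES1 to GALNT1, 17 were lower and 3 at least 2-fold lower, with a median of -0.05. Of the 20 others from NEDD4L to CBLN2, 12 were lower and 3 at least 2-fold lower, with a median of -0.19. Over all genes the median was 0.04, and over the 246 measured genes of chromosome 18 it was -0.09, with 58.5% lower and 16.7% at least 2-fold lower. Those 246 include the 37 members, so the choice of members enters these chromosome 18 values. The other genes also had weaker signals: 25 of the 49 had a mean of 6 or more, against 35 of the 37 members. With the others held to that level, the medians were -0.06 in both stretches.

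The largest differences among these other genes were RNF125, a ubiquitin ligase beside RNF138, at -4.09 over 7 probe sets, HRH4 at -1.76 on a single one and ZNF271P at -1.16 in the first stretch. In the second they were SERPINB2, a relative of SERPINB8, at -2.83, CDH19 at -2.59 and PMAIP1, a pro-death BCL2-family gene, at -2.04. Whether probes of related genes, as among the SERPINB genes, take up each other's signal was not tested.

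Beyond the ends, gene medians were mostly slightly higher before CABLES1, lower after GALNT1 and mixed at the other ends. Before CABLES1 the nearest measured gene, RBBP8, was at 0.36, and the 6 measured genes before it lay between -0.02 and 0.26. After GALNT1 the nearest was RPRD1A at -0.51, and the next 6 were all lower, from -2.50 in FHOD3 to -0.43 in MOCOS. The lower values thus went on past GALNT1. Before NEDD4L the nearest was ATP8B1 at 0.19, and of the 6 measured genes before it NARS1 (-0.71), ONECUT2 (-3.03), WDR7 (-0.41) and TXNL1 (-0.84) were lower, while FECH (0.11) and BOD1L2 (0.07) were not. After CBLN2 the nearest was NETO1 at 0.10; of the next 6, CYB5A was at -1.55 and CNDP2 at -0.59, and the other 4 lay between -0.05 and 0.11. Between GALNT1 and NEDD4L the median of 65 genes was -0.13, before CABLES1 it was 0.04 over 70 genes, and after CBLN2 -0.01 over 25.

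**Figure D4:**
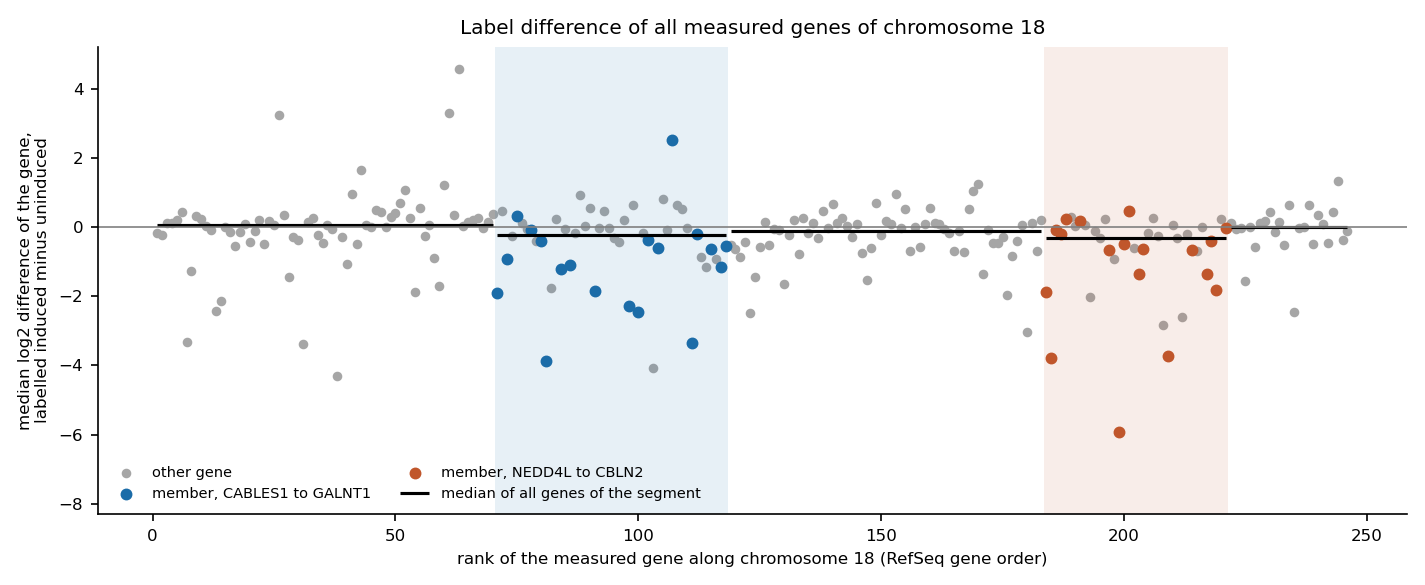
Median log2 difference (induced minus uninduced) of the 246 measured genes of chromosome 18, by rank in gene order; members are coloured, other genes grey, shaded bands mark the 2 stretches and black bars the median of all genes of a segment. The segment medians are -0.22 and -0.32 in the bands and 0.04, -0.13 and -0.01 outside them. The bands include the members, which were picked for their difference, and without the members their medians are -0.05 and -0.19.

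The promoters of the members were mostly rich in CpG. Their 52 windows of 250 bases held a median of 19 CpG, against 11 over all 35116 promoters of the RefSeq table, and a median of 66.2% G and C against 58%. Among all measured genes with a promoter entry, 3033 had no window of 10 or more CpG and 10831 had such a window, beside 5 and 29 of the members. The 5 member genes without any window of 10 or more CpG were TTC39C, NEDD4L, ALPK2, SERPINB8 and CD226. They were grouped after their values were seen and chosen on the label difference, so no comparison of that difference is made between them and the other 29. The NF-kB site form GGGNNNNNCC, on either strand and with overlaps counted once, occurred in 32 of the 52 windows (61.5%) and in 54.4% of all promoters. By stretch it occurred in 18 of 25 windows (72%) from CABLES1 to GALNT1 and in 14 of 27 (51.9%) from NEDD4L to CBLN2. Such a match is a description of the letters and no sign of binding.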

How the data were processed

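RNA of L1236 cells was measured on Affymetrix whole-transcript arrays. The deposited values are log2 signals made by the authors with RMA and Partek, per the submitters' processing notes (without versions; genome build and annotation: not given in the sources used here); base 2 was taken from the usual output of RMA and the range of 1.88 to 15.1. RMA equalises arrays and compresses dim signals. Each of 8 arrays is deposited with an exon-level and a gene-level summary; the 4428 features in both tables were identical, so these are not further replicates. Column medians ran from 6.51 to 6.59 at exon level.

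Platform annotation named 1 symbol for 224320 exon-level probe sets, several for 10159 (left out) and none for 22951. Old symbols were updated by RefSeq synonyms, which gave TRAPPC8 its 31 probe sets (KIAA1012) and ZCCHC2 1 (C18orf49). RefSeq GRCh38.p14 also gave gene order and promoters. The filter (mean at or above the 25th percentile) kept 193072 probe sets.

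All of them entered 1 model with terms for label, B code and last number (limma 3.58.1, R 4.3.3), with interactions in separate fits and Benjamini-Hochberg adjustment; every adjusted p is from limma. Figures used matplotlib 3.10.9. All members were named. Array values were given for the 5 largest and 2 smallest medians per stretch (at least 3 probe sets) at the brightest probe set. For DSG2 and SOCS6 they were instead given at the probe set nearest the median, with only the difference at the brightest. Neighbours were given for the ends and as the 3 largest others per stretch, and probe sets with the 3 lowest p per test. Median probe sets, CpG groups and the order of probe sets were looked at after the values were seen. Members and lists were chosen with earlier results of these data known. Same-numbered arrays of the 2 groups had deviations correlated from -0.04 to 0.03 over the tested probe sets, so no pairing was assumed in the fit; the pairs in the text only set arrays with equal codes side by side, and their SD describes that matching.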

Additional observations from a re-analysis of the deposited data

Results flagged for a closer look

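In each group of 4 arrays, the median log2 signal over a gene's probe sets was checked for an array far from the others, where chance flags about 1 in 20 groups. Of 74 groups (37 genes under 2 labels) 7 had one. Among the induced arrays, that of pair 3 stood above the others in OSBPL1A (7.75, others 7.08 to 7.10) and DSG2 (4.78, others 4.38 to 4.44), and that of pair 2 below them in SEC11C (10.5, others 10.8) and LMAN1 (10.5, others 10.7 to 10.8). Among the uninduced arrays, that of pair 1 stood above the others in IMPACT (8.78, others 8.38 to 8.43) and MAPRE2 (11.3, others 11.0), and that of pair 4 below them in B4GALT6 (7.96, others 8.64 to 8.71).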

How the results depend on the processing

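With probe sets under the median signal left out, the median of CABLES1 to GALNT1 was -0.67 and the difference between the stretches -0.018; in the gene-level table that difference was -0.52. Without a filter, with quantile normalisation, column centring or the mean of the probe sets, the stretch values moved by less than the spread between pairs. Leaving out each array in turn gave -1.01 to -0.81 for CABLES1 to GALNT1, -0.68 to -0.51 for NEDD4L to CBLN2, -0.45 to -0.17 for their difference and -0.21 to -0.10 for RELB. The replicate block and the fit without covariates left each label difference at its value (-0.93 and -0.65), since the design is balanced. Under every alternative run, the tests of B code, last number and both interactions called 0 member probe sets, the replicate block, leave-one-out fits and an adjusted p under 0.1 included; 0 calls in so small a design say nothing about stability. For single genes, 535 recomputed medians stayed within the spread between pairs and 19 moved further, of which CBLN2, near 0, changed sign (0.14 without the induced array of pair 1); with the median filter IMPACT was at -1.75 and DSG2 at -0.40, and by the mean of its probe sets OSBPL1A was at -1.30. Exon positions were not used, so no probe set is placed within its gene, and dim signals limit the size of the lower values. The causes of these shifts were not tested.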
